A study of Mus musculus with 16 samples.

Results

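Ccr7, a chemokine receptor, and the chemokine ligands Ccl2, Ccl7, Cxcl1, Cxcl5 and Cxcl12 were followed across protrusions and cell bodies of mouse fibroblasts with normal or reduced Apc. The genes were chosen by name for what they encode, with earlier results of these data known. Of the 6, 5 are described here out of 13015 genes with values, and Cxcl12 was not analysed here. The cells were NIH/3T3, an established line of mouse embryonic fibroblasts, transfected either with a non-targeting siRNA (siControl) or with an siRNA that targets the transcript of Apc, the tumor suppressor adenomatous polyposis coli (siAPC). All cells of both groups were serum-starved, left for 2 h on filters with pores of 3.0 µm, exposed for 1 h to lysophosphatidic acid (LPA) in the lower chamber and then lightly fixed. Protrusions (Ps) that had grown through the pores and cell bodies (CB) on the upper side were collected apart, so that each siRNA has a CB and a Ps group, with 4 libraries in each of the 4 groups. The model is thus a single cell line with a transient and partial reduction of Apc.

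Chemokines are small secreted proteins that guide the movement of cells by binding receptors with 7 membrane-spanning segments, which signal through G proteins of the Gi class. CC chemokines carry a pair of adjacent cysteines near their amino terminus, whereas in CXC chemokines 1 residue separates that pair. Ccl2 and Ccl7 are monocyte attractants that act mainly through Ccr2, and Ccl7 also through Ccr1 and Ccr3. Cxcl1 and Cxcl5 attract neutrophils through Cxcr2 and belong to the CXC chemokines that carry the residues glutamate, leucine and arginine before the first cysteine. Fibroblasts release such ligands when stimulated by inflammatory cytokines, largely through NF-kappaB. Ccr7 is best known from dendritic cells and T cells, where its ligands Ccl19 and Ccl21 guide entry into lymph nodes.

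The coding stretches that define these families are shown first, because they mark which of the genes encodes the receptor and to which class each ligand belongs. Each is 30 coding bases from GENCODE M21 on GRCm38, read 5′ to 3′ on the strand of the gene. In Ccr7 the capitals mark the codons of the Asp-Arg-Tyr motif at the inner end of the third membrane segment, through which such receptors engage G proteins, and in the ligands they mark the paired cysteine codons.
Ccr7: atcagcattGACCGCTACgtagccatcgtc
Ccl2: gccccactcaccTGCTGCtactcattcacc
Ccl7: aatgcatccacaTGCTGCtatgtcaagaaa
Cxcl1: aatgagctgcgcTGTcagTGCctgcagacc
Cxcl5: acggagctgcgtTGTgttTGCttaaccgta
The Ccr7 stretch lies at chr11:99145618-99145647 on the minus strand in exon 3 of 3 and marks codons 153 to 155. The Ccl2 stretch lies at chr11:82036494-82036523 and the Ccl7 stretch at chr11:82046526-82046555, both on the plus strand in exon 2, with the cysteines at codons 34 and 35 and at codons 33 and 34. The Cxcl1 stretch lies at chr5:90891484-90891513 and the Cxcl5 stretch at chr5:90759715-90759744, both on the plus strand in exon 2, with the cysteines at codons 33 and 35 and at codons 53 and 55. In Cxcl1 and Cxcl5 the codons for glutamate, leucine and arginine directly precede the first cysteine.

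The 5 genes are protein coding and lie on 2 chromosomes. Ccr7 spans 99144196 to 99155077 on the minus strand of chromosome 11. On the same chromosome Ccl2 (82035571 to 82037453) and Ccl7 (82045712 to 82047525) follow each other on the plus strand, 8259 bases apart. Cxcl5 (90759360 to 90761624) and Cxcl1 (90891241 to 90893115) lie on the plus strand of chromosome 5, 129617 bases apart. The gene model Gm17268 overlaps Ccl2, and reads from the 2 models may not have been told apart, since counting by strand is not stated in the sources used here.

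Values are log2 CPM as deposited, in which the reads of a gene are set against the scaled size of its library. Reads in the genes with values ranged from 13466225 to 20296087 per library, and 3 reads, taken as the smallest detectable number, equal a log2 CPM between -2.73 and -1.80. This floor covers counting error only. Apc stood at 31.3% of its control level in CB and 27.9% in Ps, with no overlap between siAPC and siControl libraries (exact two-sided permutation p = 0.0286 in each fraction, the smallest this design allows). In siControl CB Apc measured 2.13, 2.59, 3.54 and 2.17 log2 CPM, so that its control mean in CB is raised by replicate 3. Of 14 fibroblast markers 12 had values, and their summed level was 38747 to 42081 CPM (CB) and 23080 to 25549 CPM (Ps) with siControl and 49205 to 54309 CPM (CB) and 28252 to 30838 CPM (Ps) with siAPC. A single replicate of each group, number 3 in siControl CB and number 2 elsewhere, gave lower values to GC-rich genes than its fellow replicates did (Spearman rho from -0.65 to -0.53 over 9878 genes, as a description). Mitochondrial genes held 1.37% to 1.95% of reads in CB and 2.18% to 4.16% in Ps. Nothing in the labels says whether replicates were separate cultures, and the study calls them independent, so that p-values measure the spread between these libraries.

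Ccr7 was close to the lower limit of the libraries in control cells and at a middle level with siAPC. In siControl CB its log2 CPM was 0.42, 0.47, -0.78 and 0.85 in replicates 1 to 4, from 13 to 33 reads. In siControl Ps it was -0.24, -0.71, -1.46 and -0.44, from 5 to 10 reads. These 8 libraries hold few Ccr7 reads but all lie above 3 reads, and the Ps and CB values overlap.

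With siAPC the Ccr7 values were of another order. They were 4.30, 4.35, 4.79 and 4.90 log2 CPM in siAPC CB, from 398 to 536 reads, and 3.86, 3.72, 4.12 and 4.42 in siAPC Ps, from 196 to 351 reads. All siAPC libraries stood above all siControl libraries of the same fraction. The log2 difference siAPC minus siControl was 4.34 (SE 0.30) in CB, a 20.3-fold higher level, and 4.74 (SE 0.30) in Ps, a 26.8-fold higher level. Ordered from the highest difference down, Ccr7 stood at rank 15 of 13015 genes in CB and at rank 12 in Ps. Because Ccr7 was chosen with this difference known, the values are a description and no test is given. Groups that do not overlap, with siAPC higher, were found for 11.1% of all genes in CB and 10.9% in Ps, and nothing about Ccr7 is read from that. In bulk RNA more cells with Ccr7 and more Ccr7 RNA per cell cannot be told apart.

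**Figure D1:**
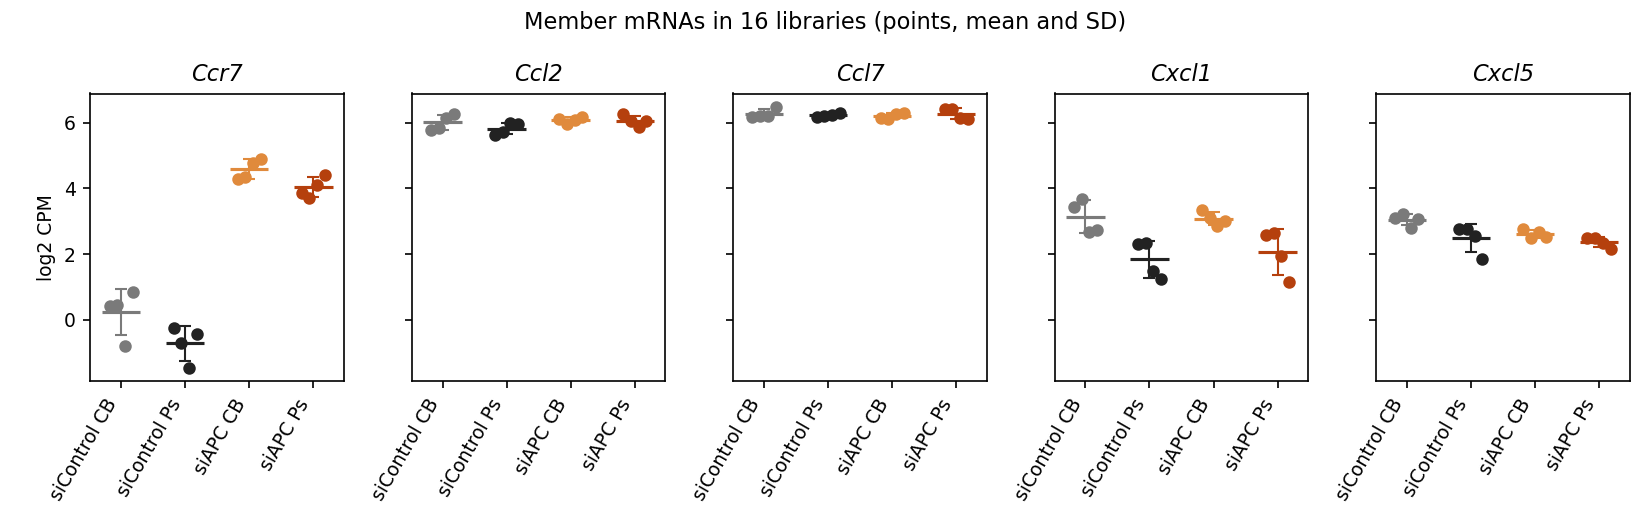
Level of each gene as log2 CPM (vertical axis) in 16 libraries, grouped on the horizontal axis by siRNA and fraction. Points are libraries in replicate order, the wide bar is the mean and the error bar 1 SD of 4 libraries. The siAPC libraries of Ccr7 lie between 3.72 and 4.90 and its siControl libraries between -1.46 and 0.85, while the ligands overlap between siRNAs except Cxcl5 in CB.

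The size of the Ccr7 difference varied with the replicate number. In Ps, where libraries of the same number are paired between siRNAs, it ranged from 4.11 to 5.58 and was largest in replicate 3, where the siControl level was lowest. In CB, where the numbers do not pair the libraries, replicate 3 again had the lowest siControl level. With replicates 1 and 2 only, the log2 difference was 3.88 in CB and 4.27 in Ps, and with replicates 3 and 4 only it was 4.81 and 5.22. Leaving out 1 library at a time gave 4.002 to 4.548 in CB and 4.49 to 4.90 in Ps.

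Leukocyte markers were examined beside Ccr7, since it is best known from leukocytes. Of 33 such markers 8 had values, and Ptprc, Cd3e, Cd4, Itgam, Itgax and Flt3 were not analysed here. The summed level of the 8 was 24.6 to 27.3 CPM (CB) and 25.1 to 27.1 CPM (Ps) with siControl and 45.6 to 47.3 CPM (CB) and 48.3 to 53.0 CPM (Ps) with siAPC. Cd74, the invariant chain of MHC class II, rose with siAPC by 2.90 (SE 0.17, adjusted p = 4.59e-10 by limma) in CB and 3.17 (SE 0.17, adjusted p = 1.13e-10) in Ps on the log2 scale. Lyz2, a lysozyme of myeloid cells, rose by 0.93 (adjusted p = 3.52e-07) and 1.12 (adjusted p = 2.54e-08). Of the other 6, Itgal, an integrin chain of lymphocytes, rose and Coro1a, an actin regulator of leukocytes, fell in Ps, with differences of 0.81 (adjusted p = 0.0167) and -0.45 (adjusted p = 0.0486). In all, 2 of the 8 rose and 0 fell in CB, beside 7.52% and 5.87% of all genes, and 3 rose and 1 fell in Ps, beside 10.7% and 11.2%. Their part in the Ccr7 result was not tested. The 3 of 8 epithelial markers with values summed to 268 to 354 CPM (CB) and 263 to 313 CPM (Ps) with siControl and to 384 to 395 CPM (CB) and 305 to 342 CPM (Ps) with siAPC, without overlap between siRNAs in CB. Most of this sum is Krt14, a keratin, which rose in CB by 0.31 (adjusted p = 0.0125), while Cdh1 and Krt8 differed in CB by -0.07 (adjusted p = 0.865) and 0.14 (adjusted p = 0.453). The 2 of 7 endothelial markers with values summed to 0.21 to 1.90 CPM over all groups, with overlap.

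The monocyte attractants Ccl2 and Ccl7 had overlapping levels in the 4 groups. Ccl2 measured 5.79, 5.84, 6.14 and 6.28 log2 CPM in siControl CB and 5.64, 5.71, 5.998 and 5.95 in siControl Ps. With siAPC it measured 6.13, 5.97, 6.08 and 6.17 in CB and 6.25, 6.04, 5.88 and 6.04 in Ps. All 4 groups overlap, and each library held between 621 and 1641 reads of Ccl2, so that counting error is small beside the spread of the replicates.

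The log2 difference siAPC minus siControl of Ccl2 was 0.07 (SE 0.11) in CB and 0.23 (SE 0.11) in Ps. In Ps it was 0.47 with replicates 1 and 2 only and -0.01 with replicates 3 and 4 only. Between paired Ps libraries siAPC was higher in 3 of 4, from -0.12 in replicate 3 to 0.61 in replicate 1.

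Ccl7 varied least of the 5 genes. It measured 6.16, 6.22, 6.21 and 6.49 log2 CPM in siControl CB and 6.18, 6.22, 6.24 and 6.31 in siControl Ps. With siAPC it measured 6.15, 6.11, 6.25 and 6.30 in CB and 6.41, 6.43, 6.14 and 6.11 in Ps, and the groups overlap. The SD within groups was 0.13, against 0.17 for Ccl2, 0.25 for Cxcl5, 0.49 for Ccr7 and 0.52 for Cxcl1. The log2 difference siAPC minus siControl was -0.07 (SE 0.08) in CB and 0.04 (SE 0.08) in Ps. In Ps it was 0.22 with replicates 1 and 2 only and -0.15 with replicates 3 and 4 only.

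The neutrophil attractants Cxcl1 and Cxcl5 were lower in Ps than in CB of control cells. Cxcl1 measured 3.45, 3.69, 2.69 and 2.75 log2 CPM in siControl CB and 2.31, 2.33, 1.49 and 1.24 in siControl Ps. With siAPC it measured 3.33, 3.11, 2.86 and 3.01 in CB and 2.58, 2.64, 1.93 and 1.15 in Ps. Within each siRNA all CB libraries stood above all Ps libraries, as for 26.5% of all genes in siControl and 30.4% in siAPC, and the Ps libraries held 33 to 93 reads. The log2 difference siAPC minus siControl was -0.07 (SE 0.31) in CB and 0.23 (SE 0.31) in Ps. In CB it was -0.35 with replicates 1 and 2 only and 0.22 with replicates 3 and 4 only, and in Ps it ranged from 0.032 without siControl Ps replicate 4 to 0.54 without siAPC Ps replicate 4.

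Cxcl5 measured 3.11, 3.22, 2.81 and 3.07 log2 CPM in siControl CB and 2.76, 2.77, 2.54 and 1.86 in siControl Ps. With siAPC it measured 2.76, 2.50, 2.68 and 2.53 in CB and 2.48, 2.51, 2.34 and 2.16 in Ps, from 51 to 162 reads over the 16 libraries. In CB all siAPC libraries lay below all siControl libraries, with a log2 difference of -0.44 (SE 0.17). Such separation, with siAPC lower, was found for 9.73% of all genes in CB, and nothing about Cxcl5 is read from it. In Ps the groups overlap and the difference was -0.11 (SE 0.17), with siAPC lower in 3 of 4 pairs. With scaling to total reads this difference was 0.0505. Leaving out 1 library at a time gave -0.32 to -0.0175 in Ps, the lowest of these without siControl Ps replicate 4.

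**Figure D2:**
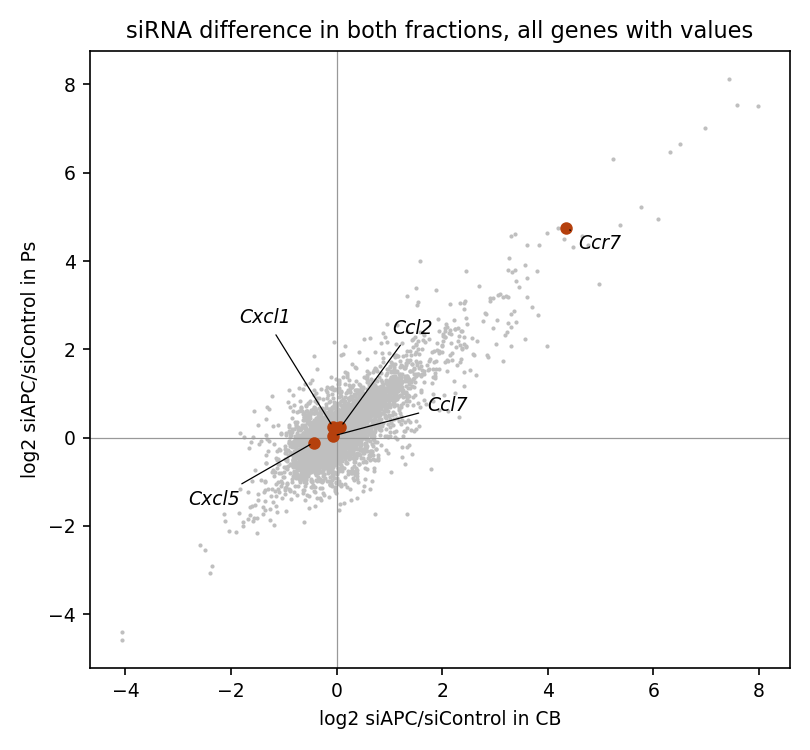
The log2 difference siAPC minus siControl in CB (horizontal axis) and in Ps (vertical axis) for all 13015 genes (grey points), with the 5 genes in red. Ccr7 lies at 4.34 and 4.74, and the 4 ligands lie between -0.44 and 0.23 on both axes.

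Levels were compared between genes only per length, as log2 of CPM per kilobase of the merged exons of each gene. On this scale Ccl7 was highest, at 6.52 to 6.59 over the 4 group means, followed by Ccl2 at 5.64 to 5.90. Cxcl1 ranged from 0.93 to 2.24 and Cxcl5 from 1.47 to 2.16, and their order differed between CB, where Cxcl1 was higher, and Ps, where Cxcl5 was higher. This order is that of the group means. With merged exons of nearly equal length (1875 and 1863 bases), Cxcl1 was below Cxcl5 in replicates 3 and 4 of siControl CB. In replicates 1 and 2 of siAPC Ps it was above Cxcl5. Ccr7 was the lowest of the 5 genes in control cells, at -0.74 in CB and -1.70 in Ps. With siAPC it reached 3.60 in CB and 3.05 in Ps, below Ccl2 and Ccl7 and above Cxcl1 and Cxcl5.

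The comparison of Ps with CB asked whether these RNAs are concentrated in protrusions. None of the 5 genes was called higher in Ps in either siRNA by limma (adjusted p below 0.05), against a background of 29.1% of all genes in siControl and 29.8% in siAPC, and none was so called at an unadjusted p below 0.05. Cxcl1, Ccr7 and Cxcl5 were called higher in CB in siControl, 3 of 5 genes against 31.2% of all genes. In siAPC Cxcl1 alone was called higher in CB, 1 of 5 against 30.9% of all genes. With 5 genes these counts describe the genes and set them apart from no background.

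Cxcl1 had the lowest estimate of Ps/CB among the 5 with both siRNAs. Its log2 Ps/CB was -1.30 (SE 0.31, adjusted p = 0.00129 by limma) in siControl, which left 40.5% of the CB level in Ps, and -1.01 (SE 0.31, adjusted p = 0.00889) in siAPC, which left 49.8%. In siAPC, where libraries of the same number are paired, Ps was lower in 4 of 4 pairs, from -1.86 to -0.47. The widest of these, in replicate 4, carries the lowest Cxcl1 value, and without that Ps library the siAPC ratio was -0.70 and still called (adjusted p = 0.0417). Over all 27 alternatives both ratios were called.

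Cxcl5 had a log2 Ps/CB of -0.57 (SE 0.17, adjusted p = 0.0073 by limma) in siControl, where CB and Ps libraries did not overlap, and of -0.24 (SE 0.17, adjusted p = 0.222) in siAPC, where they did. The siControl value rested in part on replicate 4 of siControl Ps, without which it was -0.36 and still called (adjusted p = 0.0287), and over all 27 alternatives the adjusted p stayed between 0.000131 and 0.0456.

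Ccr7 had a log2 Ps/CB of -0.95 (SE 0.30, adjusted p = 0.0101 by limma) in siControl and -0.55 (SE 0.30, adjusted p = 0.118) in siAPC. The siControl call rested on 5 to 33 reads per library and was not made with voom weights, which give less weight to few reads, where the estimate was nearly the same and its SE larger (-0.91, SE 0.56, adjusted p = 0.172). In siAPC Ps was lower in 4 of 4 pairs, from -0.67 to -0.43, and a fit with the replicate number as a block called the lower Ps level (SE 0.15, adjusted p = 0.00448). Voom weights also called it (adjusted p = 0.00732), as did the fit without replicate 3 of siControl CB (adjusted p = 0.0437). In all, the lower level of Ccr7 in Ps was called in 25 of 27 alternatives in siControl and in 5 of 27 in siAPC. The main fit shares its spread over all groups and does not use the pairing. The SD of Ccr7 within groups was 0.71 (CB) and 0.54 (Ps) in siControl and 0.31 and 0.30 in siAPC. These counts are thus no measure of which siRNA has the firmer difference.

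Ccl2 and Ccl7 were called in neither siRNA. Ccl2 had a log2 Ps/CB of -0.19 (95% interval -0.41 to 0.03, adjusted p = 0.132 by limma) in siControl and -0.03 (-0.26 to 0.19, adjusted p = 0.809) in siAPC. Ccl7 had -0.03 (-0.21 to 0.14, adjusted p = 0.758) and 0.07 (-0.11 to 0.25, adjusted p = 0.485). All 4 intervals thus lie between -0.41 and 0.25, but the Ccl2 ratio in siControl was called in 4 of 27 alternatives, among them without replicate 1 of siControl CB (-0.26, adjusted p = 0.0478) and with replicates 3 and 4 only (-0.24, adjusted p = 0.0264). Scaling to total reads, which put the median of all genes at -0.30, called Ccl2 (-0.49, adjusted p = 0.00273) and Ccl7 (-0.33, adjusted p = 0.00597) in siControl.

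**Figure D3:**
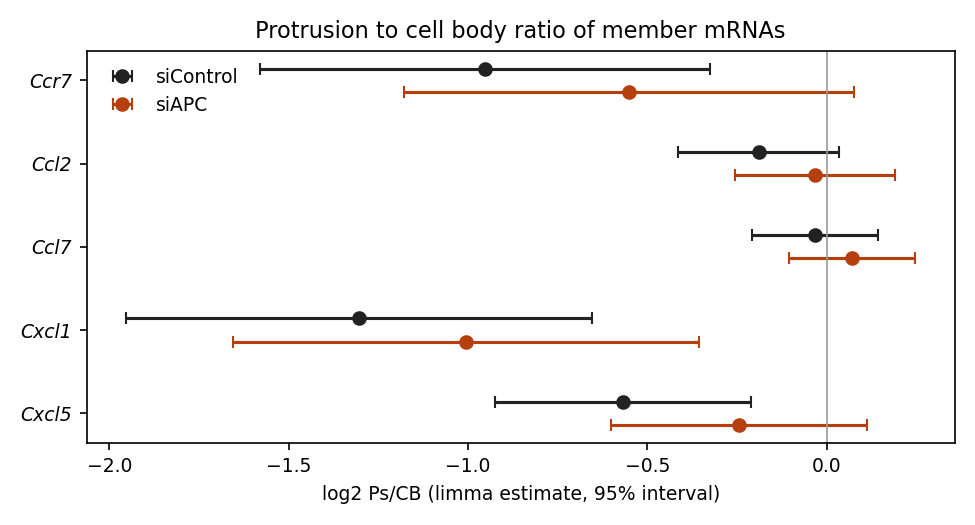
The log2 Ps/CB ratio (horizontal axis) of the 5 genes with siControl (black) and siAPC (red), as the limma estimate with its 95% interval. The intervals of Cxcl1 lie below 0 with both siRNAs, those of Ccr7 and Cxcl5 lie below 0 with siControl only, and those of Ccl2 and Ccl7 include 0.

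The study asked whether distribution between Ps and CB depends on Apc, which is the difference of log2 Ps/CB between siAPC and siControl, written log2(Diff FC). It was positive for all 5 genes and called for none (adjusted p = 0.981 for each by limma, unadjusted p from 0.194 to 0.505). In all, 3 of 13015 genes (0.0231%) were called for this difference. The study used other cutoffs, on log2(Diff FC) and p among RNAs enriched in Ps. With these it reported a group of Apc-dependent RNAs and measured selected ones also by direct RNA counting (nanoString). The number called here is therefore not comparable with that group. The estimates were 0.40 for Ccr7 (95% interval -0.49 to 1.29), 0.32 for Cxcl5 (-0.18 to 0.83), 0.30 for Cxcl1 (-0.62 to 1.22), 0.16 for Ccl2 (-0.16 to 0.47) and 0.10 for Ccl7 (-0.15 to 0.35). Leaving out 1 library at a time gave 0.15 to 0.74 for Ccr7, 0.115 to 0.42 for Cxcl5, 0.097 to 0.61 for Cxcl1, 0.070 to 0.23 for Ccl2 and 0.028 to 0.16 for Ccl7, so that the sizes rest on single libraries while the sign stayed positive. The intervals of Ccl2 and Ccl7 are narrow, whereas those of Ccr7 and Cxcl1 reach a 2.44-fold and a 2.32-fold higher ratio. The estimates share the scaling between libraries, and with replicates 3 and 4 only those of Cxcl1 and Ccl7 were -0.042 and -0.079. Ccr7 itself, 20.3-fold higher in CB and 26.8-fold higher in Ps, was thus higher in both fractions by amounts that the test did not separate.

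The spread within groups was not the same for each gene, and for the CXC ligands it went with the replicate number. For Cxcl1 the mean of replicates 1 and 2 exceeded that of replicates 3 and 4 in 4 of 4 groups, by 0.85 (CB) and 0.96 (Ps) on the log2 scale with siControl and by 0.28 (CB) and 1.07 (Ps) with siAPC. For Cxcl5 it did so in 4 of 4 groups too, by 0.02 to 0.57. For Ccl2 the mean of replicates 1 and 2 was lower in 3 of 4 groups, by -0.39 in siControl CB, -0.30 in siControl Ps and -0.07 in siAPC CB, and higher by 0.19 in siAPC Ps. Ccr7 differed by 0.41 and 0.47 in the siControl groups and by -0.52 and -0.47 in the siAPC groups.

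Cxcl1 and Cxcl5 lay on the same side of their group means in 12 of 16 libraries, as did Ccl2 and Ccl7. Cxcl1 and Ccl2 lay on opposite sides in 11 of 16, and so did Cxcl1 and Ccl7, and Ccr7 and Ccl2. The correlation r of the deviations was -0.44 for Cxcl1 and Ccl2 and -0.237 for Ccr7 and Ccl2. For Cxcl1 and Ccl7 it was 0.113, so that r and the count of sides differ in direction. These numbers describe libraries that share their depth and scaling and are given with no test. Over all genes with a mean log2 CPM of at least 1, the second component of the deviations from group means, with 20.8% of their variance, also separated numbers 1 and 2 from 3 and 4 in each of the 4 groups. The labels do not say what the numbers share. Values for replicates 1 and 2 and for replicates 3 and 4 are given above. A fit with numbers 1 and 2 against 3 and 4 as a covariate changed no call of the 5 genes. That covariate is balanced over the groups, so that it leaves every estimate as it was and can change only the SE. It therefore cannot show whether the numbers matter to the estimates. Beyond these, the part of the numbers in the results was not tested.

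**Figure D4:**
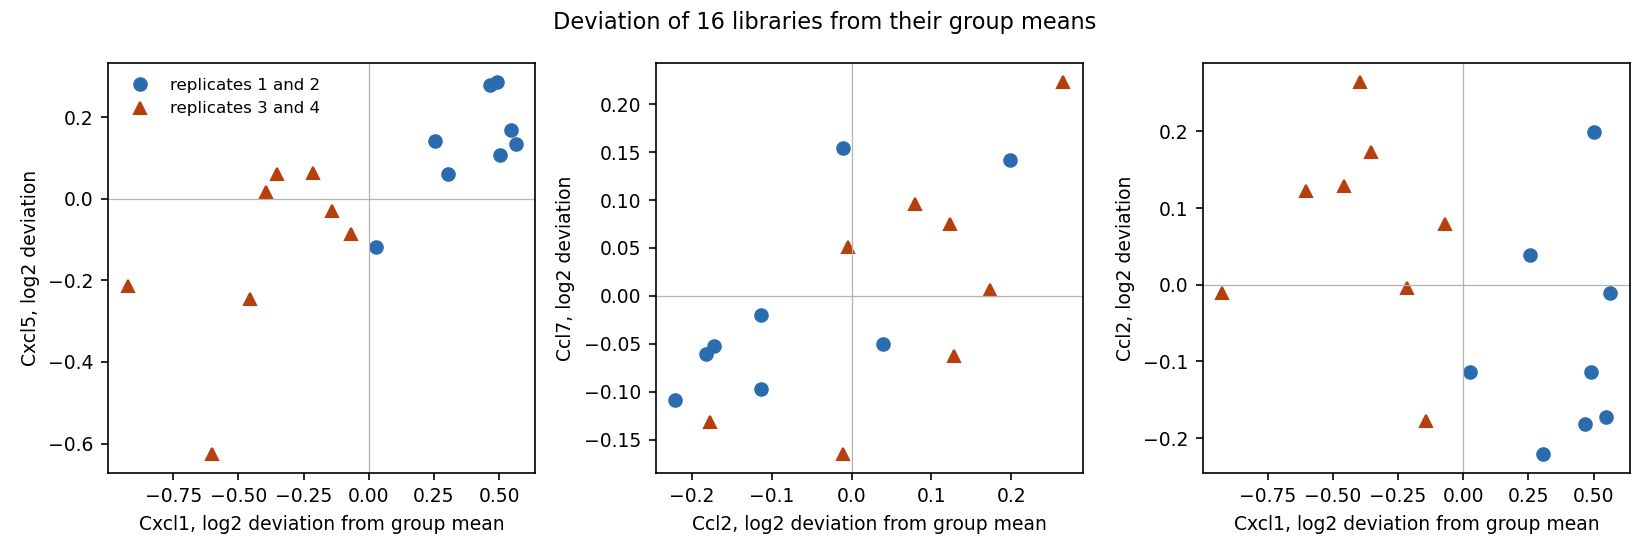
Deviation of each of 16 libraries from its group mean on the log2 scale, for Cxcl5 against Cxcl1, Ccl7 against Ccl2, and Ccl2 against Cxcl1. Circles are replicates 1 and 2 and triangles replicates 3 and 4. Cxcl1 is higher in replicates 1 and 2 on average in 4 of 4 groups, and Cxcl1 and Cxcl5 share the side of the mean in 12 of 16 libraries.

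The RNAs whose log2 values were most like those of each gene across the 16 libraries were listed by Pearson r among 9624 genes, as a description. For Ccr7 they were Camk2a (r = 0.988), a calcium- and calmodulin-dependent kinase, Ntn5 (0.986), a netrin, Igfbp7 (0.984), a secreted binder of insulin-like growth factors, Tmem100 (0.981) and Cdh26 (0.981), a cadherin. For these genes the libraries form a siControl and a siAPC cluster, and r describes the step between them. The steps differed in size, from 0.74 in CB and 0.80 in Ps for Igfbp7 to 3.56 and 3.91 for Tmem100.

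For Cxcl1 the most similar were Nr6a1 (0.954), a nuclear receptor, Erdr1 (0.948) and Pim3 (0.944), a serine/threonine kinase. For Cxcl5 they were Neil1 (0.904), a DNA glycosylase, Creg1 (0.897) and Cd63 (0.877), a tetraspanin of endosomes. For Ccl2 they were Atf4 (0.886), a transcription factor of the stress response to amino acid shortage, Tgif1 (0.820) and Hoxa5 (0.813). For Ccl7, with its small range, the highest r was 0.705, for Sco2, a protein of cytochrome oxidase assembly, followed by Ppp3cc (0.575) and THAP6 (0.573). No gene among the 3 most similar was shared by any 2 of the ligands.

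Genes next to Ccr7 were looked up by position, outside the rule for named genes. Tns4, a tensin of focal adhesions that lies 54890 bases from Ccr7, rose with siAPC by 1.35 in CB (adjusted p = 0.00139 by limma) and 1.13 in Ps (adjusted p = 0.00391). Igfbp4, the next gene with values beyond it, rose by 0.80 (adjusted p = 1.72e-06) and 0.78 (adjusted p = 1.66e-06). On the other side Smarce1, a chromatin remodelling subunit 53970 bases away, differed by 0.03 (adjusted p = 0.854) and -0.03 (adjusted p = 0.823). All of these differences are smaller than that of Ccr7.

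The promoter table from RefSeq (GRCm38.p6, 250 bases before to 50 after each start) held 1 of the 5 genes, Cxcl1. Its window was searched for the NF-kappaB motif, since that factor is the best known inducer of Cxcl1, and the 30 bases around the match are shown with the motif in capitals.
Cxcl1 promoter: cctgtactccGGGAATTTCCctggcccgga
This stretch lies at chr5:90891164-90891193 on the plus strand, with the first base of the motif at position -71 relative to the start, and the minus strand gives an overlapping match 1 base on. The motif was present in 8.46% of 32851 promoters of the same length. The TCF/LEF motif (CTTTG followed by AA, AT, TA or TT, on either strand), which mediates the response to beta-catenin that Apc restrains, was not in this window and was present in 16.9% of promoters. The AP-1 motif (TGANTCA, which reads the same on both strands) was not in it either and was present in 7.81%. The matches are descriptions of the sequence.

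Among the partners of the 5 genes, few had values here. None of 19 other chemokine receptors was analysed here, including Ccr2, Ccr1 and Ccr3 for Ccl2 and Ccl7 and Cxcr2 and Cxcr1 for Cxcl1 and Cxcl5, nor were the Ccr7 ligands Ccl19 and Ccl21a. Of 4 atypical receptors, which bind chemokines without G protein signalling, only Ackr3 was analysed here. Ackr3, a scavenger of Cxcl12, rose with siAPC by 0.45 (SE 0.06, adjusted p = 3.05e-05 by limma) in CB and 0.75 (SE 0.06, adjusted p = 3.65e-08) in Ps, and its log2 Ps/CB was -1.53 (adjusted p = 1.12e-12) in siControl and -1.23 (adjusted p = 4.12e-11) in siAPC. Like Cxcl1, it was thus higher in CB with both siRNAs.

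Of 36 other chemokine ligands 10 had values. With siAPC 4 of these rose and 1 fell in CB, and 3 rose and 0 fell in Ps, against a background in CB of 7.52% of all genes higher and 5.87% lower, and in Ps of 10.7% and 11.2%. Ccl8, a monocyte attractant encoded 77732 bases beyond Ccl2, rose by 1.06 in CB (adjusted p = 0.00384 by limma) and 1.24 in Ps (adjusted p = 0.000655), while its neighbours Ccl2 and Ccl7 differed by -0.07 to 0.23. Ccl9, a macrophage inflammatory protein, rose by 0.73 (adjusted p = 2.44e-06) and 0.74 (adjusted p = 1.45e-06). Cx3cl1, the membrane-bound chemokine fractalkine, rose by 0.61 (adjusted p = 0.0013) and 0.70 (adjusted p = 0.000217).

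Ccl6, a CC ligand of myeloid cells with 4 to 31 reads per library, rose in CB by 1.33 (adjusted p = 0.00822), and its Ps difference was 0.74 (adjusted p = 0.110). Ccl28, a ligand of mucosal tissues with 3 to 18 reads, fell in CB by 1.12 (adjusted p = 0.0428), and its Ps difference was 0.28 (adjusted p = 0.644). Whether CB and Ps differed in these 2 changes was not called in the test of the difference (adjusted p = 0.981 for both). The median log2 difference of the 10 ligands was 0.17 in CB and 0.67 in Ps, beside -0.04 and -0.03 for all genes.

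Between fractions the other ligands went in both directions, beside 29.1% of all genes higher and 31.2% lower in Ps with siControl and 29.8% and 30.9% with siAPC. In siControl 4 of 10 rose in Ps, Ccl25 by 0.78 (adjusted p = 0.00245 by limma), Ccl5 by 0.70 (adjusted p = 0.0328), Ccl27a by 0.36 (adjusted p = 0.0474) and Ccl9 by 0.28 (adjusted p = 0.00481). Cx3cl1 and Ccl28 were lower in Ps, with log2 Ps/CB of -0.94 (adjusted p = 1.08e-06) and -0.92 (adjusted p = 0.0319). In siAPC 4 of the 10 were higher in Ps and 1 lower. None of the 10 was called for log2(Diff FC).

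**Figure D5:**
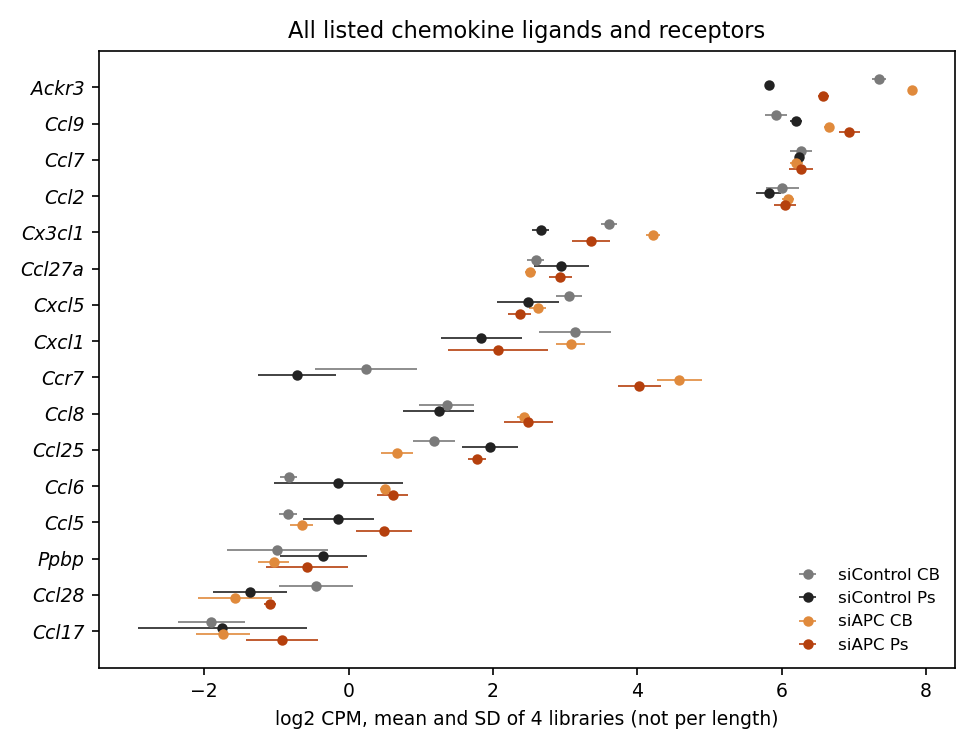
Level of each chemokine ligand and receptor with values, as log2 CPM and not per length (horizontal axis), with points for the mean and bars for 1 SD of 4 libraries in each of the 4 groups. Ccr7 shows the widest gap between siRNAs, Ackr3 and Cx3cl1 are lower in Ps with both siRNAs, and the group means of Ccl2 and Ccl7 lie close together.

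Of 33 genes for receptor coupling and desensitization 22 had values. With siAPC 1 rose and 4 fell in CB, where 7.52% of all genes rose and 5.87% fell, and 2 rose and 8 fell in Ps, where 10.7% rose and 11.2% fell. Arrb1, an arrestin that ends receptor signalling, rose by 0.81 (adjusted p = 0.00111 by limma) in CB and 0.79 (adjusted p = 0.000948) in Ps. Gng2, a G protein gamma subunit, fell by 0.81 (adjusted p = 0.00119) and by 1.23 (adjusted p = 8.91e-06), and Plcb3, a phospholipase C that G proteins activate, fell by 0.50 (adjusted p = 0.000657) and by 0.70 (adjusted p = 1.13e-05). Rgs3, which speeds the turning off of G proteins, fell by 0.60 (adjusted p = 0.00175) and by 0.40 (adjusted p = 0.0214). Between fractions in siControl 11 of the 22 were higher in Ps and 5 lower (all genes 29.1% and 31.2%), and in siAPC 8 were higher and 6 lower (all genes 29.8% and 30.9%). The smallest adjusted p in siControl belonged to Gng5 (log2 Ps/CB 1.06), Rgs10 (1.10), Gng12 (0.78) and Gnb1 (0.48). The median log2 Ps/CB of the 22 was 0.19 in siControl, beside 0.00 for all genes, and 0.068 in siAPC, beside 0.015.

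Of 35 genes of the NF-kappaB pathway 34 had values, and 1 rose and 7 fell with siAPC in CB, against 7.52% and 5.87% of all genes, and 1 rose and 7 fell in Ps, against 10.7% and 11.2%. Map3k14, the kinase of the alternative NF-kappaB branch, fell by 0.50 (adjusted p = 0.0021 by limma) in CB and by 0.48 (adjusted p = 0.00187) in Ps. Irak1, a kinase downstream of interleukin-1 and Toll-like receptors, fell by 0.29 (adjusted p = 0.0115) and by 0.46 (adjusted p = 0.000153). Tnip1, a negative regulator, rose by 0.39 in CB (adjusted p = 0.00354), and Tlr2, a receptor for bacterial lipoproteins, rose by 0.55 in Ps (adjusted p = 0.0027). The median log2 difference of the 34 was -0.10 in CB and -0.02 in Ps, beside -0.04 and -0.03 for all genes. Between fractions in siControl 17 of the 34 were lower in Ps and 2 higher (all genes 31.2% and 29.1%), with a median log2 Ps/CB of -0.32, and in siAPC 18 were lower and 3 higher (all genes 30.9% and 29.8%). Those with the smallest adjusted p in siControl were Tnfrsf1a (-0.77), the main receptor for tumor necrosis factor, Map3k14 (-1.17), Tab1 (-0.67) and Tlr2 (-1.14).

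Of 26 other secreted or inflammatory products of fibroblasts 16 had values, and with siAPC 3 rose and 0 fell in CB and 3 rose and 1 fell in Ps. Of all genes 7.52% rose and 5.87% fell in CB, and in Ps 10.7% rose and 11.2% fell. Il33, an alarmin stored in nuclei, was called higher in CB (adjusted p = 0.00324 by limma) and in Ps (adjusted p = 0.000235), but it had only 0 to 15 reads per library and siControl means of -4.83 (CB) and -3.96 (Ps) log2 CPM, below the value of 3 reads, so that the size of its difference depends on the added reads and is not given. Lif, a cytokine of the interleukin-6 family, rose by 0.97 (adjusted p = 0.000532 by limma) and 1.56 (adjusted p = 1.99e-06), and Ptges, which makes prostaglandin E2, rose by 0.41 (adjusted p = 0.000254) and 0.50 (adjusted p = 1.84e-05). Il34 fell in Ps by 0.30 (adjusted p = 0.0219). In siControl 1 of the 16 was higher and 7 were lower in Ps, beside 29.1% and 31.2% of all genes, and in siAPC 2 and 8, beside 29.8% and 30.9%.

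Of 29 genes for chemokine binding and processing, which include heparan sulfate proteoglycans that hold chemokines at the cell surface and proteases that trim them, 17 had values. In siControl 15 of the 17 were lower in Ps and 0 higher (all genes 31.2% and 29.1%), with a median log2 Ps/CB of -0.87, and in siAPC 14 were lower and 0 higher (all genes 30.9% and 29.8%). Mmp2, a protease known to cleave Ccl7, had a log2 Ps/CB of -1.22 (adjusted p = 2.35e-11 by limma), and Mmp14, its membrane-bound activator, was lower in Ps too (adjusted p = 6.03e-10). Ndst2, which modifies heparan sulfate, had -1.07 (adjusted p = 1.23e-09) and the proteoglycan Sdc1 had -1.24 (adjusted p = 3.43e-09). With siAPC 2 rose and 1 fell in CB (all genes 7.52% and 5.87%), and 3 rose and 1 fell in Ps (all genes 10.7% and 11.2%). The proteoglycan Sdc2 rose by 0.60 (adjusted p = 2.13e-05) and 0.88 (adjusted p = 1.23e-07), Gpc1 rose by 0.28 (adjusted p = 0.0229) and 0.37 (adjusted p = 0.00237), and Mmp14 fell by 0.33 (adjusted p = 0.00297) and by 0.35 (adjusted p = 0.000996). In none of these lists was a gene called for log2(Diff FC).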

How the data were processed

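RNA-seq of 16 libraries (4 groups of 4) was used. Per the methods and the submitters' processing notes, the authors made stranded libraries, aligned paired reads to mm10 with STAR 2.4.2a after bcl2fastq 1.8.4, counted them per gene and normalized them with limma-voom (limma 3.26.1). The deposited values are log2 CPM with 0.5 added reads and a scaling between libraries. Inverting this gave whole reads (within 0.01) for 100% of 208240 values, and supplied read numbers and voom weights. The table holds the authors' fold changes and p-values too, which were not used.

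limma 3.58.1 (lmFit, eBayes with trend, R 4.3.3) was fitted to the log2 values of 13015 genes in all 16 libraries with 1 mean per group. A gene was called at a p below 0.05 after Benjamini-Hochberg adjustment over all genes. Since the values are not counts, no count model was used. The fit was tested on simulated data. Groups came from the labels. The genes and lists were chosen with earlier results of these data known, so that siAPC against siControl is given for the 5 genes without a test. For list genes the calls and adjusted p-values of limma in that comparison are printed as a description. They are no independent support for any result on the 5 genes or on the lists.

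Named were the 5 genes, Apc, up to 4 genes per list with the smallest adjusted p in a contrast (and others where a count was 5 or fewer), receptors and ligands of the 5, and the genes with the highest Pearson r to Ccr7 (5) or to each ligand (3), with a mean log2 CPM of at least 1 and without predicted genes and pseudogenes. List members were matched by symbol. Gene positions came from GENCODE M21 (GRCm38).

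Pairing was checked by correlating, over 10292 genes, how libraries with the same number deviated from their group means. Each pair exceeded 0.1 between siAPC CB and siAPC Ps (0.416 to 0.617) and between siControl Ps and siAPC Ps (0.162 to 0.551), but not between siControl CB and siControl Ps (mean 0.132) or between the CB groups (mean -0.034). Alternatives were another scaling, quantile normalization, voom weights, no trend, a filter on low values, a replicate block, each library left out, 4 libraries left out for a GC trend, and 2 added reads.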

Additional observations from a re-analysis of the deposited data

Results flagged for a closer look

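Ccl7 in siControl CB held 1 library apart from the others. Its highest value, 6.49 log2 CPM in replicate 4, lay farther from the nearest of the other 3 than Dixon's 95% limit allows, with a gap of 0.832 of the range of the group. Of 20 groups of 4 libraries examined (5 genes in 4 groups) this was 1, and chance alone marks about 1 in 20. Without that library the log2 Ps/CB of Ccl7 in siControl was 0.04 (adjusted p = 0.684 by limma) in place of -0.03.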

How the results depend on the processing

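With 27 alternatives, of which 16 left out 1 library each, 645 of 675 values of the 5 genes kept their direction and their side of the threshold or moved by less than 1 SD. This number overstates stability. Leaving out a library outside a comparison cannot move its estimate, nor can dropping the trend, the low-value filter, the block or the covariate. For siAPC against siControl a small move counted as kept even where the sign changed, as for Ccl2 in CB (0.07, and -0.09 with replicates 3 and 4 only). The alternatives that used replicates 1 and 2 only, replicates 3 and 4 only, or the contrast of these numbers as a covariate were chosen after seeing the data. The covariate, which could move only the SE, changed no call. The number of genes called higher in Ps in siControl (0) and for log2(Diff FC) (0) was 0 in all of them. The number called higher in CB in siControl, 3, was 5 with scaling to total reads, 2 with voom weights (without Ccr7) and 4 with the replicate block (Ccl2 added), and leaving out 1 library gave 3 to 4. The number higher in CB in siAPC, 1, was 3 with scaling to total reads, 2 with voom weights, 2 with the replicate block (Ccr7 added) and 2 with replicates 1 and 2 only, while leaving out 1 library gave 1 to 2. The number higher in Ps in siAPC, 0, was 1 (Ccl7) with replicates 1 and 2 only and 0 when 1 library was left out.

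Scaling to total reads put the median log2 Ps/CB of all genes at -0.30 in siControl and -0.14 in siAPC, in place of 0.00 and 0.015, and moved the calls in siControl from 3792 higher and 4058 lower to 2005 and 6193. It moved those of siAPC from 3877 and 4024 to 2793 and 5114, and those of siAPC against siControl in Ps from 1393 and 1464 to 2943 and 550. The direction changed for uncalled values only. The log2 Ps/CB of Ccl2 in siAPC was 0.059 with quantile normalization, 0.027 without siAPC Ps replicate 3 (leaving out 1 library at a time gave -0.099 to 0.027) and 0.099 with replicates 1 and 2 only. That of Ccl7 in siControl was 0.0225 with quantile normalization, 0.042 without siControl CB replicate 4 (leaving out 1 library at a time gave -0.069 to 0.042) and 0.0076 with replicates 1 and 2 only, and in siAPC it was -0.085 with scaling to total reads, -0.014 without the 4 libraries with a GC trend and -0.15 with replicates 3 and 4 only. The log2(Diff FC) of Ccl7 and Cxcl1 was -0.079 and -0.042 with replicates 3 and 4 only. The cause of these changes was not tested. With replicates 3 and 4 only, Ccr7 in siControl had nearly the same ratio with a larger SE (-0.99, SE 0.43, adjusted p = 0.0711 by limma) and was not called, whereas Ccl2 was.

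The replicate block, where numbers do not pair the siControl fractions, called Ccl2 lower in Ps in siControl (-0.19, adjusted p = 0.0232) and, where they pair siAPC, Ccr7 (-0.55, adjusted p = 0.00448), and changed no other call of the 5 genes. Calls over all genes for log2(Diff FC), 3 lower, ranged over the alternatives from 0 to 7 lower and 0 to 2 higher, and those of siAPC against siControl in CB, 979 higher and 764 lower, were 568 and 515 with replicates 1 and 2 only, 1253 and 1196 with replicates 3 and 4 only, and 731 and 427 without siAPC CB replicate 4. Depth limits the siControl values of Ccr7, from 5 to 33 reads.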
